A study of Rattus norvegicus with 16 samples.

Results

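This account follows 37 genes of mitochondrial and peroxisomal fatty acid oxidation and of the PPARalpha programme in adult rat liver, out of 26913 names on the array. The genes were listed by name, with earlier results of these data known, and every one had a probe (42 probes in all). Liver RNA of male Sprague-Dawley rats aged 78 to 86 days was hybridised on 16 Agilent 2-colour arrays, 4 per group, to ask what litter adoption at birth and a contaminant mixture given to the mother leave behind in the adult liver. C rats were born to dams given corn oil and stayed with them, and CC rats were litters of such dams adopted by another corn oil dam. M rats were born to dams dosed at 1.0 mg/kg/day with organochlorine pesticides, PCBs (polychlorinated biphenyls) and methylmercury mixed in corn oil, and MM rats were litters of such dams adopted by another dosed dam. Dosing ran from gestation to postnatal day 20, so the rats were sampled long after it ended. Each group held 8 pups, and each array a pool of 2 of them joined at random; the labels used here do not tie pups to litters, so p-values measure the spread between pools. The description of the M arrays calls them a control, but title and treatment both name the mixture, so they count as exposed here. All C and CC arrays lay on 1 slide and all M and MM arrays on the other, so the exposure and the slide cannot be told apart. Each liver sample (Cy5) was read against 1 universal rat reference RNA made from 14 cell lines (Cy3), with no dye swap.

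PPARalpha, encoded by Ppara, is a nuclear receptor that fatty acids activate and that binds DNA with a retinoid X receptor at paired hexamers of the AGGTCA type. In the fasted liver it raises genes that take up, activate and burn fatty acids. Long acyl chains enter mitochondria through carnitine palmitoyltransferase 1 (Cpt1a), the carnitine carrier and carnitine palmitoyltransferase 2 and are shortened there by beta-oxidation, while peroxisomes and the Cyp4a hydroxylases of the endoplasmic reticulum handle other chains.

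The hexamer was looked for in the 250 bases before the start listed in the RefSeq promoter table (build GRCr8), which held 31 of the 37 genes (for a gene with several starts, the first listed). AGGTCA, on either strand, stood in 8 of these 31 promoters (25.8%) and in 14.1% of all 33469 promoters of that length. The paired form AGGNCANAGGNCA, which can overlap the single hexamer, was found in the Fabp1 promoter alone among the 31, and in 0.368% of all promoters, while AGGTCANAGGTCA was in none of the 31 and in 0.0508% of all. The sequences of Fabp1, Cyp4a2 and Cyp4a3 are shown because these genes had the highest liver-over-reference ratios of the list, with capitals marking the paired form in Fabp1 (it begins 77 bases before the start, on the opposite strand) and AGGTCA in the others (105 bases before the start in both). They lie at chr4:104749220-104749339 on the plus strand, chr5:134170909-134171058 on the minus strand and chr5:134352237-134352386 on the minus strand, each read toward the transcript start that the promoter table lists. Gene models in the RefSeq gene table can begin further upstream. All 120 bases of the Fabp1 stretch lie inside its gene model (chr4:104744302-104753119), 32 bases of the Cyp4a3 stretch lie inside its own (chr5:134334396-134352268), and 0 of the Cyp4a2 stretch do.
Fabp1: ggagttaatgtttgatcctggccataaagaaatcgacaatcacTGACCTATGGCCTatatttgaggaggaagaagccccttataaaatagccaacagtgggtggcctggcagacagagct
Cyp4a2: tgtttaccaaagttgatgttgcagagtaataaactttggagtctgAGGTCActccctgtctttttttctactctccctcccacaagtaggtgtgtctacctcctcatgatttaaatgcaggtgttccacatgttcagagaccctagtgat
Cyp4a3: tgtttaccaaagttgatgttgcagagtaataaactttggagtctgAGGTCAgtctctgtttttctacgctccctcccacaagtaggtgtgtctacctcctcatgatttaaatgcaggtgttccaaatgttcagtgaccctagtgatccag
The Cyp4a2 and Cyp4a3 windows are identical over their first 51 bases, hexamer included. A match is a description of letters and was not tested as a binding site.

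Each value is the log2 of liver signal divided by reference signal unless stated, and "called" means a limma p under 0.05 after Benjamini-Hochberg adjustment over the 11084 features bright enough to test. Of the 37 genes, 35 were tested. Acot1, a cytosolic acyl-CoA thioesterase, was well above background on 0 arrays. Fgf21, a fasting hormone made by the liver, was so on 2 arrays each in C, CC and M and on 1 in MM. Pdk4, the kinase that spares glucose by switching off pyruvate dehydrogenase, entered through the C group alone (4 of 4 arrays, against 2, 2 and 1 in CC, M and MM). Bulk RNA cannot tell fewer cells of a type from less RNA per cell. All 15 hepatocyte markers were well above background on all 16 arrays. Of 9 adipocyte markers on the array, Adipoq, Lep, Aqp7, Lipe and Slc2a4 were so on no array, while Cidec, Retn, Cfd and Pck1 were so on all 16. Pck1 also stands in the lists of periportal and fasting genes, and Cidec among the further lipid genes. The summed liver signal of the 9 was 3656 to 4914 in C, 3786 to 4860 in CC, 4469 to 5041 in M and 4123 to 5267 in MM, and their part in the results was not tested.

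The programme stood far above the reference in liver. In limma 32 of the 35 tested genes were called higher in liver than in the reference, where 50.7% of all tested features were, and the median ratio of the genes was 2.77 against 0.11 over all features. Fabp1, the fatty acid binding protein of hepatocytes, stood at 9.11 ± 0.04 (SE, 16 arrays), Cyp4a2 at 8.65 ± 0.08, Cyp4a3 at 7.28 ± 0.05 and Cyp4a1 at 5.61 ± 0.14, the last 3 being fatty acid omega-hydroxylases. The reference signal of Cyp4a3 was well above background on 1 of 16 arrays and that of Acot5 and Pdk4 on 0, so the size of these 3 ratios depends on how background is treated. Ratios of some other genes also changed with the processing. Ppara ranged from 0.68 to 1.85 here and from 2.50 to 4.27 on the scanner software's log ratio. Ehhadh ranged from 2.38 to 3.64 and from 4.66 to 6.05. Acadm changed less, from 3.55 to 4.12 here and from 3.97 to 4.20 there. On the scanner software's log ratio Cyp4a3 ranged from 10.92 to 12.63, Cyp4a2 from 10.31 to 11.35 and Fabp1 from 9.24 to 10.26, the reverse of the order given above. The acyl-CoA synthetase Acsl1 stood at 4.95 ± 0.05 and medium-chain acyl-CoA dehydrogenase (Acadm) at 3.92 ± 0.04. Only Cd36, a fatty acid transporter, and Crat, carnitine acetyltransferase, were called lower than the reference (-1.39 ± 0.10 and -0.92 ± 0.04; 41.6% of all features were called lower). The pantetheinase Vnn1 was at 0.02 ± 0.05 and was not called. Among carnitine-dependent steps Cpt1a stood at 2.34, Cpt2 at 2.90 and the carrier Slc25a20 at 2.03. Of the other mitochondrial enzymes, the dehydrogenases Acadvl, Acadl and Acads stood at 2.77, 2.42 and 1.76, Hadh, a hydroxyacyl-CoA dehydrogenase, at 3.22, the reductase Decr1 at 2.17 and Etfdh, which passes electrons to ubiquinone, at 3.07. Of the peroxisomal enzymes the thiolase Acaa1a stood at 3.46, the bifunctional Hsd17b4 at 3.26 and the isomerases Eci2 and Ech1 at 2.93 and 1.66. Plin2, which coats lipid droplets, stood at 1.14. The reference is a mix of cell lines, so these ratios compare liver with those lines and do not rank the genes by amount.

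**Figure D1:**
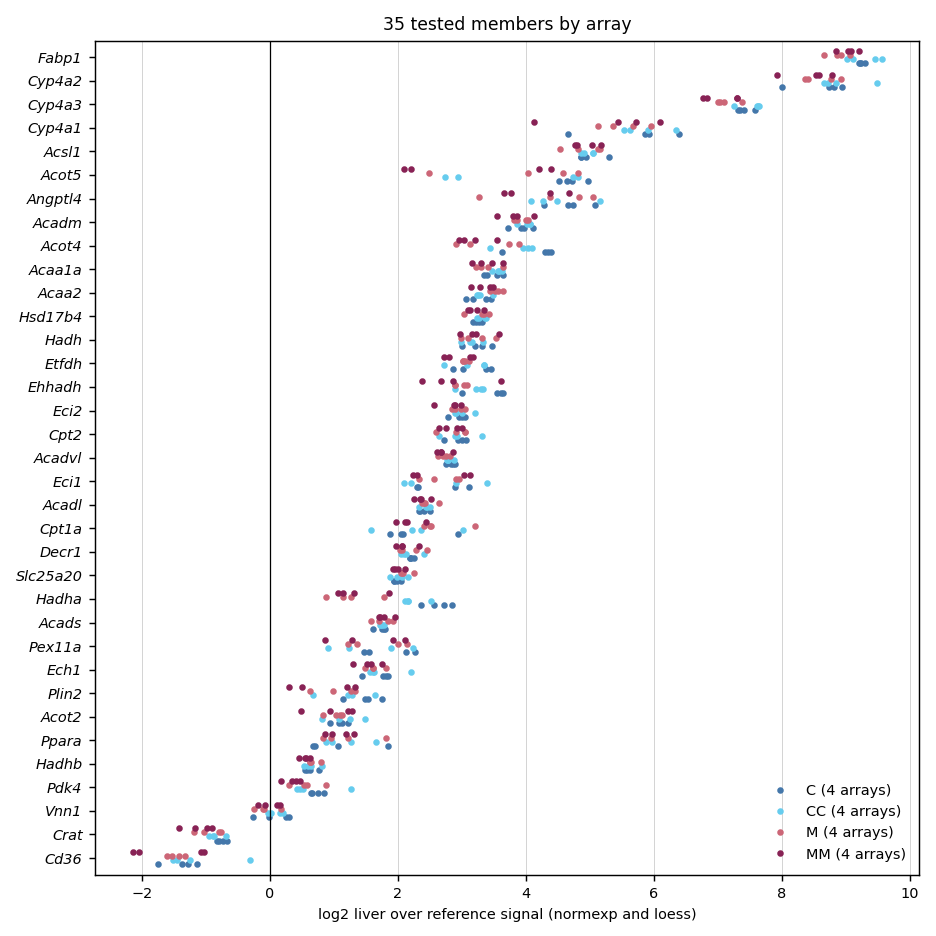
Log2 liver over reference of the 35 tested genes (horizontal axis), 1 point per array, with colours for the 4 groups of 4 arrays. The genes run from Cd36 and Crat below 0 to Fabp1 above 8, and the 4 groups overlap for most genes, Hadha being the widest exception.

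For control litters, adopted rats (CC) were set against rats kept by their own dam (C) on the same slide. No gene of the list was called and none had an unadjusted p under 0.05 in limma. Of all 11084 features 0 were called (0%), and 106 had an unadjusted p under 0.05. The genes split 20 above and 15 below 0, with a median of 0.01 beside -0.01 over all features. In 34 of the 35 genes the 95% interval stayed inside 2-fold in either direction, and in 22 it stayed inside 1.5-fold. The intervals apply to the log ratios used here, and ratios of some genes changed with the processing. The lowest p was that of Hadha on its brighter probe (-0.39 ± 0.19, SE, unadjusted p = 0.063), while its second probe gave 0.01 ± 0.15. The 4 arrays of CC and the 4 of C overlapped for every gene of the list (0.875% of features did not).

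For exposed litters the same question is put by MM minus M on the second slide. Here too 0 genes of the list and 0 of 11084 features (0%) were called in limma, and 0 genes and 195 features had an unadjusted p under 0.05. The values leaned one way, with 28 of 35 below 0 and a median of -0.10 beside 0.00 over all features, against a spread of 0.16 (SD between pools) in the median of the genes on an array. In 32 genes the 95% interval stayed inside 2-fold, and in 24 inside 1.5-fold. These counts hold for the log ratios used here and do not bound the true change of dim genes. Pdk4, close to background on many arrays, gave -1.44 in MM minus M on the scanner software's log ratio, beyond 2-fold. Intervals on that scale are not counted here. The median of the list was -0.09 within each row of the slide, where 2 arrays meet 2, with 24 and 25 genes below 0. Some genes reversed between the rows, such as Angptl4 (-1.23 and 0.70) and Cd36 (-0.58 and 0.38). In CC minus C the medians by row were -0.04 and 0.05. No gene of the list had groups that did not overlap in MM minus M (1.07% of features). Of 12 tested genes of the fasting and glucocorticoid response 11 were below 0 (median -0.11), and their part in this was not tested. The interaction, which asks whether adoption acted differently in exposed and control litters, called 0 genes and 0 features (0%), with 0 genes and 182 features at an unadjusted p under 0.05.

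**Figure D2:**
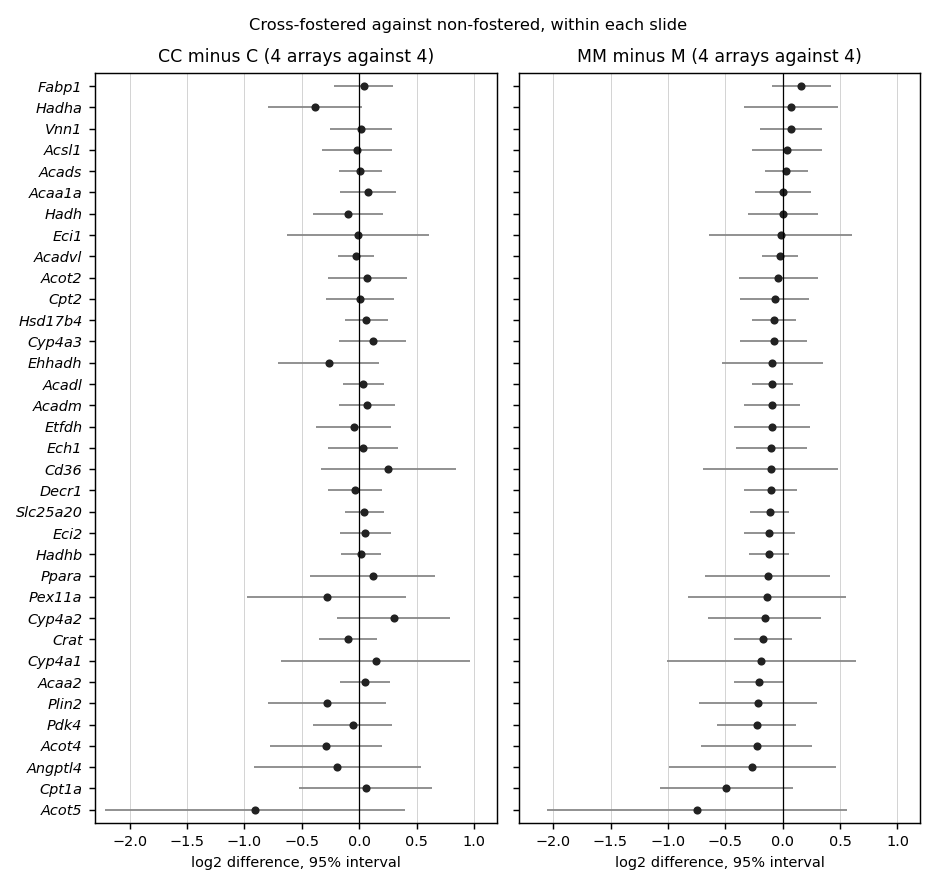
Log2 difference with its 95% interval for the 35 tested genes in CC minus C (left) and MM minus M (right), 4 arrays against 4 in each. Every interval includes 0, and 28 of the 35 right-hand points lie below 0 against 15 on the left.

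The receptor and the entry step varied widely between pools. Ppara read 0.68, 1.07, 0.70 and 1.85 in C replicates 9 to 12, 0.98, 1.27, 0.88 and 1.65 in CC replicates 1 to 4, 0.84, 0.95, 1.23 and 1.82 in M replicates 5 to 8, and 0.96, 1.18, 0.86 and 1.31 in MM replicates 1 to 4. The highest array of each group (C 12, CC 4, M 8 and MM 4) was in the second row of its slide, and all 4 groups overlapped. Cpt1a, which sets the rate at which long acyl chains enter mitochondria, read 1.88, 2.08, 2.05 and 2.94 in C, 1.59, 2.21, 2.36 and 3.02 in CC, 2.50, 2.41, 2.52 and 3.20 in M, and 2.43, 2.14, 2.11 and 1.98 in MM, in the same order of replicates. The groups overlapped, and the 4 MM pools lay closest together. The differences were 0.06 ± 0.27 (SE) for CC minus C and -0.49 ± 0.27 for MM minus M (adjusted p = 0.9998 and 0.9996 in limma). MM minus M was -0.31 without M replicate 8 and -0.58 without MM replicate 1, and it was -0.17 in the first and -0.82 in the second slide row. In the liver channel alone the 4 MM arrays of Cpt1a lay below the 4 M arrays (-0.40 ± 0.26, unadjusted p = 0.143), as groups did not overlap for 0.911% of features. Within slides, Cpt1a and Ppara gave r = 0.83 over the 8 C and CC arrays (exact permutation p = 0.0159, two-sided, 0.318 after Benjamini-Hochberg adjustment over 20 relations) and Spearman's rho = 0.71 (exact p = 0.0576, adjusted 0.831), with r = 0.21 without CC replicate 4 and C replicate 12. Over the 8 M and MM arrays r was 0.60 (exact p = 0.132, adjusted 0.975) and rho 0.19 (exact p = 0.665, adjusted 0.977), with r = 0.02 without M replicate 8 and MM replicate 4. No relation passed adjustment. On each slide r fell without the pair of arrays farthest from the median of Cpt1a, which also narrows its range. On the second slide M replicate 8 was highest in both genes, while MM replicate 4 was lowest in Cpt1a (1.98) with 1.31 in Ppara. The within-group spread of Cpt1a and Ppara (0.43 and 0.40, SD) stood at the 95.6th and 94.5th percentile of all tested features. In the liver channel alone their SD was 0.40 and 0.20, beside a median of 0.17 over all features. Ppara was dim, at 98 to 172 units of liver signal, though well above background on all 16 arrays.

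The thioesterase Acot5, which frees fatty acids from coenzyme A in peroxisomes, lay in 2 separate ranges. It read 4.64, 4.51, 4.72 and 4.97 in C, 2.73, 4.81, 4.74 and 2.93 in CC, 4.82, 2.48, 4.57 and 4.03 in M, and 2.10, 4.21, 2.21 and 4.40 in MM. Thus 11 arrays lay between 4.03 and 4.97 and 5 between 2.10 and 2.93, with no array in the gap, and the 5 came from CC, M and MM. The liver signal itself was 165 to 237 units on those 5 arrays and 467 to 744 on the other 11, while the reference signal was 28.0 to 38.0 on all 16. CC minus C was -0.91 ± 0.62 (SE) and MM minus M -0.75 ± 0.62, neither called. Single arrays moved these values, to -0.55 without CC replicate 1 in the first, and to -0.37 without MM replicate 1 and -1.25 without M replicate 6 in the second. Among Acot genes the table of GRCr8 places Acot2, Acot1, Acot4 and Acot5 within 98.4 kb on chromosome 6. Acot2 ranged from 0.49 to 1.49 over the 16 arrays. Acot4 ranged from 2.90 to 4.39 on its first probe and from 1.73 to 4.17 on its second.

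**Figure D3:**
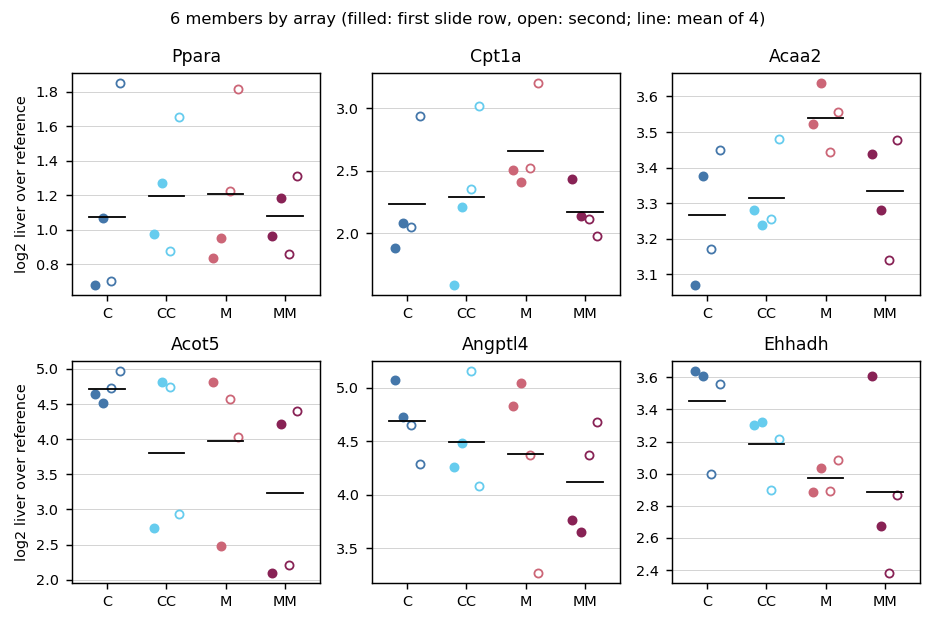
Log2 liver over reference by array for 6 genes, with filled points for the first and open points for the second row of a slide and a line at the mean of each group of 4. Acot5 falls into 2 ranges, Cpt1a and Ppara each have a high open point in C, CC and M, and the MM mean of Acaa2 lies below each of the 4 M arrays.

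Among the enzymes of the oxidation spiral, Acaa2, the mitochondrial thiolase that releases acetyl-CoA, had the lowest p in MM minus M. It read 3.07, 3.38, 3.17 and 3.45 in C, 3.28, 3.24, 3.26 and 3.48 in CC, 3.52, 3.64, 3.44 and 3.56 in M, and 3.44, 3.28, 3.14 and 3.48 in MM. M and MM overlapped, with a difference of -0.21 ± 0.10 (SE, unadjusted p = 0.062, adjusted p = 0.9996 in limma). Hadhb, the beta subunit of the trifunctional protein, read 0.62, 0.58, 0.55 and 0.77 in C, 0.53, 0.64, 0.60 and 0.81 in CC, 0.64, 0.62, 0.62 and 0.80 in M, and 0.56, 0.55, 0.46 and 0.62 in MM. Its MM minus M was -0.12 ± 0.08, and M and MM overlapped. Ehhadh, the bifunctional enzyme of peroxisomes, read 3.64, 3.61, 3.00 and 3.56 in C, 3.30, 3.32, 2.90 and 3.22 in CC, 2.89, 3.04, 2.89 and 3.08 in M, and 3.61, 2.67, 2.38 and 2.87 in MM. Its CC minus C was -0.27 ± 0.21 and its MM minus M -0.09 ± 0.21. In the acyl-CoA dehydrogenases, which take the first step of each round, Acadm, Acadl, Acadvl and Acads each kept a within-group SD of 0.16 or less.

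For the other named targets the groups overlapped in each of the 4 adoption and exposure comparisons. C and MM, which the design does not compare and which lay on different slides, did not overlap for Pdk4 and Crat. Elsewhere in the list the same held for Hadha (brighter probe), Acot4, Acot5, Cyp4a3 and Fabp1. The share over all features was not taken, and Pdk4 had entered the test through C alone. In the 2 exposure comparisons, also between slides, groups did not overlap for 10.9% (M minus C) and 6.6% (MM minus CC) of features. The margins were thin for Fabp1 (lowest C array 9.206, highest MM array 9.204) and Cyp4a3 (7.315 and 7.300), so this is not read as a result about these genes. Pdk4 read 0.64, 0.85, 0.66 and 0.75 in C, 0.46, 0.42, 1.26 and 0.52 in CC, 0.30, 0.87, 0.53 and 0.59 in M, and 0.18, 0.34, 0.41 and 0.46 in MM, close to background on many arrays. Its MM minus M was -0.23 ± 0.16 here and -1.44 ± 0.54 on the scanner software's own log ratios, called on neither. Angptl4, a secreted inhibitor of lipoprotein lipase, read 5.08, 4.73, 4.65 and 4.29 in C, 4.26, 4.49, 5.15 and 4.08 in CC, 4.83, 5.04, 4.37 and 3.27 in M, and 3.76, 3.65, 4.37 and 4.68 in MM. Cyp4a1 read 6.39, 5.87, 4.66 and 5.92 in C, 6.35, 5.63, 5.54 and 5.90 in CC, 5.67, 5.95, 5.12 and 5.36 in M, and 6.09, 5.71, 4.12 and 5.43 in MM. C replicate 11 and MM replicate 3 gave its lowest values, and both were in the second slide row. Cyp4a2 read 8.94, 8.81, 8.0 and 8.74 in C, 9.48, 8.66, 8.84 and 8.72 in CC, 8.92, 8.77, 8.36 and 8.40 in M, and 8.57, 8.78, 7.93 and 8.54 in MM, lowest on the same pair of arrays. Crat read -0.79, -0.82, -0.67 and -0.73 in C, -0.96, -0.89, -0.69 and -0.87 in CC, -0.80, -1.19, -1.03 and -0.76 in M, and -0.98, -1.42, -1.17 and -0.90 in MM, so that M and MM spread more widely than C. Cd36 was read by 2 probes, at -1.39 and -0.25 on average. The first read -1.13, -1.37, -1.75 and -1.27 in C, -1.24, -1.52, -0.30 and -1.44 in CC, -1.41, -1.60, -1.33 and -1.52 in M, and -2.04, -2.14, -1.02 and -1.07 in MM. CC replicate 3 was highest on both probes, at -0.30 and 0.11.

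The exposure comparisons set 1 slide against the other. In M minus C, limma called 1 gene of the list, Hadha, and 456 of 11084 features (4.11%). In MM minus CC it called the same gene and 99 features (0.893%). The list's median was -0.08 in M minus C (25 of 35 below 0, beside -0.03 over all features) and -0.17 in MM minus CC (31 of 35, beside -0.02), the latter -0.095 without CC replicate 4. Without 1 of C replicates 9 to 12 or M replicates 5, 6 and 8, M minus C called 214 to 298 features. Without CC replicate 1, 2 or 3 or MM replicate 2 or 4, MM minus CC called 33 to 54. In the liver channel alone 0 genes of the list were called in either comparison (0.00902% and 0.0271% of features), and their medians were -0.05 and -0.08. In the reference channel alone, which held the same reference RNA on every array, 17 of the 35 were called in M minus C (48.5% of features) and 15 in MM minus CC (45.3%). The reference signal of Fabp1 was higher on the second slide by 0.41 and 0.32 and that of Cd36 by 0.34 and 0.37, and these values enter the log ratios. Adjusted p = 0.117 was found for Fabp1 in M minus C (-0.36 ± 0.12), where its 4 M arrays (8.66 to 9.07) lay below the 4 C arrays (9.21 to 9.29). Groups did not overlap for 3 genes of the list in M minus C (10.9% of features) and for 1, Hadha, in MM minus CC (6.6% of features).

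Hadha, the alpha subunit of the trifunctional protein, hydrates and oxidises long-chain intermediates, and its 2 probes went opposite ways. It lies head to head with Hadhb, which encodes the partner subunit, and in GRCr8 the 2 gene models leave 243 bases between them, at chr6:31907558-31907800. That stretch is shown because both genes start from it, read on the plus strand toward Hadha, with the hexamer AGGGCA (in 17.3% of all promoters, either strand) in capitals, 78 bases before the Hadha start.
Between Hadhb and Hadha: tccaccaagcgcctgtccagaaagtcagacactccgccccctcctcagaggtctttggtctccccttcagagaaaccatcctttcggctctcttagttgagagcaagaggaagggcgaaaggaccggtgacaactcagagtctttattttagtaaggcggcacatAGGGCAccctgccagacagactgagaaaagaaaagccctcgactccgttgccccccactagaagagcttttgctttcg
The brighter Hadha probe (A_64_P055984) read 2.56, 2.37, 2.84 and 2.72 in C, 2.11, 2.16, 2.52 and 2.15 in CC, 0.88, 1.14, 1.79 and 1.26 in M, and 1.31, 1.07, 1.86 and 1.14 in MM. Both slides stood apart, with M minus C at -1.35 ± 0.19 (SE, adjusted p = 0.00127 in limma) and MM minus CC at -0.89 ± 0.19 (adjusted p = 0.0381). The call in MM minus CC was lost without any 1 of 11 arrays. The second probe (A_44_P480296) read 1.18, 1.07, 0.66 and 1.12 in C, 0.94, 1.02, 0.91 and 1.19 in CC, 1.74, 1.73, 1.15 and 1.61 in M, and 1.53, 1.39, 0.97 and 1.24 in MM. Its M minus C was 0.55 ± 0.15 (adjusted p = 0.0532 over all probes) and its MM minus CC 0.27 ± 0.15. The 2 probes also differed in the adoption comparisons, where neither was called. In MM minus M the brighter gave 0.07 ± 0.19 and the second -0.27 ± 0.15. In the interaction they gave 0.46 ± 0.27 and -0.28 ± 0.21.

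Read by channel, most of the Hadha difference lay in the reference. The reference signal of the first Hadha probe was 462, 470, 460 and 443 units in C, 470, 491, 442 and 445 in CC, 776, 690, 726 and 786 in M, and 807, 734, 709 and 763 in MM. No array of the second slide came near one of the first. On the log2 scale that is 0.80 ± 0.02 for M minus C and 0.87 ± 0.02 for MM minus CC in the reference channel, while the liver channel gave -0.51 ± 0.21 (adjusted p = 0.534) and 0.06 ± 0.21 (adjusted p = 0.9988). For the second probe the reference channel moved the other way, by -0.30 ± 0.04 and -0.37 ± 0.04, and the liver channel gave 0.27 ± 0.15 and -0.08 ± 0.15. Hadhb, from the other side of the same stretch, was at 0.04 ± 0.08 in M minus C and -0.09 ± 0.08 in MM minus CC. It was dim, though well above background on all 16 arrays, with a liver signal of 101 to 157 units. Acot1, above background on 0 arrays, read 72 to 81, so small values for Hadhb say little.

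Deviations of CC and MM arrays of the same number correlated at 0.155 to 0.581, and MM minus CC was fitted with the number as a block on those 8 arrays. For replicate 2 the correlation with another number was higher (0.232 against 0.155), and for replicate 4 the margin was small (0.190 against 0.161). The labels do not pair these pools, so the pairing was assumed from these same values. Arrays of the same number also share a slide row, so the fit with the number as a block takes in the row too. That fit called 2 genes of the list and 133 features (1.2%), Hadha at -0.89 ± 0.10 (adjusted p = 0.0134 in limma) and Acot4 at -0.69 ± 0.12 (adjusted p = 0.0454). The same arrays without the block gave 0 genes and 14 features. Acot4, a peroxisomal thioesterase, read 4.29, 3.63, 4.39 and 4.35 in C, 3.44, 3.96, 4.03 and 4.09 in CC, 3.89, 2.90, 3.12 and 3.74 in M, and 3.03, 3.20, 2.95 and 3.55 in MM. Over all 16 arrays the second probe of Acot4 gave -0.64 ± 0.35 in MM minus CC, beside -0.69 ± 0.23 for the first. In M minus C they gave -0.22 ± 0.35 and -0.75 ± 0.23.

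Several of these genes differed by the place of the array on its slide. Second minus first row of the slides called 9 of the 35 genes (42.9% of features were called). Pex11a, which divides peroxisomes, was 0.85 ± 0.08 higher in the second row and Eci1, an enoyl-CoA isomerase, 0.75 ± 0.08 higher (adjusted p = 2.05e-05 and 2.88e-05 in limma). Eci1 read 2.09 to 2.56 on the 8 arrays of first rows and 2.89 to 3.39 on the 8 of second rows, and Pex11a 0.86 to 1.54 and 1.89 to 2.26, with no overlap (9.53% of features). Plin2, Hadha and Hadh were also called higher in the second row (0.43, 0.34 and 0.30), and Cyp4a1, Cyp4a2, Acsl1 and Acadm lower (-0.70, -0.43, -0.28 and -0.19). Each row holds 2 arrays of every group, so the adoption comparisons are balanced over rows. With the row as a block 0 genes were called in CC minus C and MM minus M, 3 (Hadha, Acot4 and Fabp1) in M minus C, where 10.8% of features were, and Hadha in MM minus CC (3.9%).

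Repeat spots show that the liver signal drifted down the array. Cpt1a has 10 spots. On CC replicate 1, in a first row, its liver signal less background was 106 units at spot row 31 and 186 at spot row 322. On C replicate 11, in a second row, it was 252 at spot row 31 and 106 at spot row 322. After the scanner software's own processing the same spots read 1051 and 1129, and 1449 and 1229. Over 831 probes with 10 spots, spots below the middle row of the array were brighter than those above it in liver signal on all 8 arrays of first rows (median log2 difference 0.05 to 0.48) and dimmer on all 8 of second rows (-1.02 to -0.23). For the reference signal that difference was -0.02 to 0.03 on all 16 arrays. The Pex11a spot is at row 16 of 384, the Eci1 spots at a mean row of 25, and those of Cyp4a1 and Cyp4a2 at 312.5 and 314.5. In the reference channel alone 0 genes were called between slide rows (1.34% of features). On the scanner software's log ratios 0 genes and 0 features (0%) were called between rows, and Eci1 and Pex11a differed by 0.15 and 0.23. With a smooth trend over spot position removed instead, 4 genes were called between rows (22% of features), 2 in M minus C (Hadha and Fabp1, 8.22%) and Hadha in MM minus CC (2.23%).

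**Figure D4:**
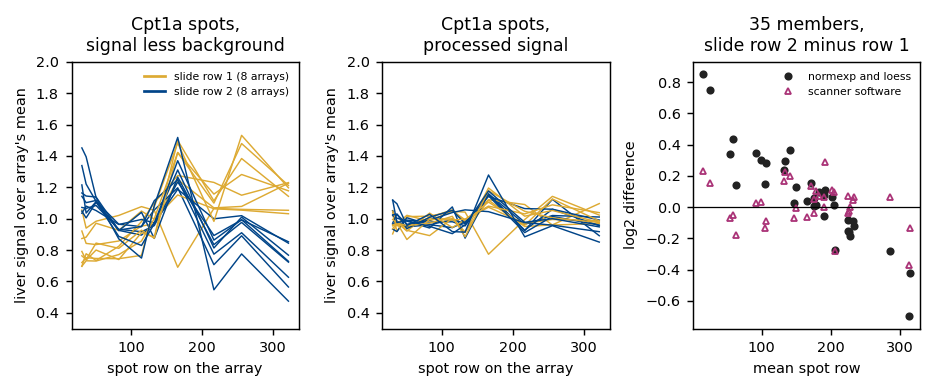
Left and middle, the liver signal of the 10 Cpt1a spots over the array's mean against spot row, before and after the scanner software's processing, with a line per array and colours for the slide row. Right, second minus first slide row (log2) of the 35 genes against the mean row of their spots, from 0.85 for Pex11a at the top edge to -0.70 for Cyp4a1 near the bottom with normexp and loess, and nearer 0 on the scanner software's log ratios.

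On the scanner software's log ratios the adoption comparisons still called 0 genes of the list (0.00902% of features in CC minus C, 0% in MM minus M). These ratios carry the software's background and dye corrections as well as that for position. M minus C called 4, where 12.3% of features were called, namely Hadha (-1.41 ± 0.14), Ehhadh (-0.98 ± 0.18, adjusted p = 0.00334), Acot4 (-1.05 ± 0.31, 0.0390) and Cyp4a2 (-0.61 ± 0.17, 0.0274). On that scale Ehhadh read 6.05, 5.86, 5.78 and 5.44 in C and 4.66 to 4.98 in M, with no overlap. The share of features without overlap was not taken there. With normexp and loess Ehhadh overlapped (3.00 to 3.64 in C, 2.89 to 3.08 in M), as it did with the spot trend removed. With that trend removed, Ehhadh, Acot4 and Cyp4a2 were not called in M minus C. The software's ratios called only Hadha in MM minus CC (-1.04 ± 0.14, 4.38% of features). In M minus C the reference signals of Ehhadh, Acot4 and Cyp4a2 were higher on the second slide by 0.15, 0.33 and 0.14. Acot5 kept its 2 ranges on that scale, at 6.64 to 7.95 on the same 5 arrays and 8.70 to 9.89 on the other 11.

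Of 76 further genes of lipid oxidation and PPARalpha response on the array, 62 were tested, and none was called in CC minus C, MM minus M or the interaction (0% of features in each). In MM minus M 47 of the 62 were below 0, with a median of -0.06, and 3 had an unadjusted p under 0.05 in limma. These were the peroxisomal reductase Decr2 (-0.45 ± 0.15), the cytochrome Cyp4f4 (-0.26 ± 0.10) and monoglyceride lipase Mgll (-0.26 ± 0.11), each with an adjusted p = 0.9996. In M minus C only Por, the reductase that feeds electrons to cytochromes P450, was called, at 0.94 ± 0.25 (adjusted p = 0.0430, 4.11% of features). Its liver channel gave 0.59 and its reference channel -0.36. In MM minus CC 0 were called. Lpl, Cpt1b, Ppard, Ppargc1a and 7 others were well above background on 0 arrays.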

How the data were processed

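The genes, lists and tests were chosen with earlier results of these data known. Per the file headers, each array was read by Agilent Feature Extraction 11.0.1.1. The deposited files give the median intensity of every spot and of its surroundings in red and green. They also give the log10 ratio of processed red to green signal, made by the software after its own background, position and dye corrections, per the file headers. The authors' deposited value table was found to be on the log2 scale, with a slope of 0.979 to 0.994 (r of 0.989 to 0.995) against scanner ratios without background subtraction. Medians per array lay between -0.04 and -0.03, and the centring step is unknown.

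Here limma 3.58.1 under R 4.3.3 applied normexp (offset 50) and loess within arrays, leaving out control and outlier spots (732 to 1138 per array) and averaging spots of a probe. Single channels were normexp-corrected and quantile-normalized between arrays. Accessions gave 18005 of 30367 probes a current symbol (RefSeq table of GRCr8), and the brightest probe stood for each of 26913 names. A feature was tested if well above background in liver on at least 3 of the 4 arrays of any group (11084 features). Liver signal was well above background for 35.0% to 41.9% of probes per array. limma fitted 4 group means (12 residual degrees of freedom). Pools of 2 rats are the replicates. Scripts were checked on simulated data.

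Values of every array are given for a set list of genes and for the 4 with the lowest p in CC minus C, MM minus M and the interaction; other probes appear where they differ by at least 1 in level or 0.5 in a comparison. Acot5, Pex11a, Eci1 and Acot4 are described further because their values stood out. CC and MM share replicate numbers, and deviations of same-numbered arrays correlated at 0.554, 0.155, 0.581 and 0.190 (highest with another number 0.447, 0.232, 0.333 and 0.161). As all 4 exceed 0.1, the numbers were taken as pairing them. Those arrays also share a slide row. Alternatives were other background and normalization settings, single channels, filters, the slide row, leaving out each array and, chosen after seeing the data, removal of a smooth trend over spot position (24 by 16 blocks).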

Additional observations from a re-analysis of the deposited data

Results flagged for a closer look

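In 10 of 140 groups of 4 arrays, 1 array stood apart from the other 3 by Dixon's criterion, where chance gives about 1 in 20, or 7. On the log2 liver over reference scale, high arrays were M replicate 8 for Cpt1a (3.20, against 2.41 to 2.52) and for Hadhb (0.80), M replicate 6 for Slc25a20, the carnitine carrier (2.25), CC replicate 4 for Acaa2 (3.48) and for Ech1, a dienoyl-CoA isomerase (2.21, against 1.57 to 1.62), and CC replicate 3 for Hadha (2.52) and for Pdk4 (1.26, against 0.42 to 0.52). Low arrays were C replicate 11 for Ehhadh (3.00, against 3.56 to 3.64), CC replicate 2 for Cyp4a3 (7.24) and C replicate 10 for Acot4 (3.63).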

How the results depend on the processing

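In M minus C, 456 features and 1 gene of the list were called. The counts were 1364 and 4 on the scanner software's log ratio, 1 and 0 in the liver channel alone, 5371 and 17 in that of the reference, 1201 and 3 with the slide row as a block, and 911 and 2 with the spot trend removed; array weights gave 821 features. Leaving out 1 array gave 214 (without M replicate 8) to 535 features and 1 to 2 genes. In MM minus CC, 99 features and 1 gene were called. The counts were 486 features on the scanner software's log ratio, 3 and 0 genes for the liver channel, 5022 and 15 for that of the reference, 432 with the row block and 247 with the trend removed. No gene of the list (0) was called on the authors' table, without the filter or with the mean of all probes. On CC and MM arrays alone, the replicate block gave 2 genes and 133 features, and no block 0 and 14. Leaving out 1 array gave 33 (without CC replicate 2) to 107 features and 0 to 1 genes. The list's median in MM minus CC was -0.17, and -0.0077 in the reference channel. CC minus C called 1 feature on the scanner software's log ratio. For features called higher in liver than reference, the count was 9391 without the filter on dim probes. Between slide rows 9 genes and 4753 features were called, 0 and 0 on the scanner software's log ratio, 0 and 149 in the reference channel, and 4 and 2441 with the trend removed. Of 864 alternative values over 32 gene values (slide rows aside), 54 changed sign, 3 of them among values called in the main fit. Leaving out 1 array turned some, such as Ppara in CC minus C (-0.03 without CC replicate 4). Among called values signs turned in single channels: Hadha gave 0.80 in M minus C (reference), 0.056 (liver) and 0.87 (reference) in MM minus CC, and Eci1 -0.022 between rows (reference). Beyond what each channel holds, the cause was not tested. Liver signal was well above background for at most 41.9% of probes, and 4 pools per group limit precision.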
